A study of Mus musculus with 4 samples.

Results

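The cytosolic ribosomal proteins are the proteins that, with ribosomal RNA, build the large and the small subunit of the ribosome outside mitochondria. Their genes were taken by symbol, as Rpl or Rps with a number and at most 1 further letter, together with Rplp0, Rplp1, Rplp2 and Rpsa. This gave 79 of the 17305 genes named on the array, read by 112 of 25097 named probes: 48 genes of the large subunit and 31 of the small one. A probe was tested where it stood well above background in either channel on at least 3 of the 4 arrays, and its gene where values were left on at least 3 arrays, which held for 76 of the 79 genes (46 large, 30 small). Rpl30, Rpl35a and Rps27a fell short because the scanner software marked their spots as non-uniform on at least 2 arrays.

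The arrays compared the pancreas of Cyp11a1 knockout (KO) with wild-type (WT) mouse embryos at stage E18.5, shortly before birth. Cyp11a1 encodes the enzyme that makes pregnenolone from cholesterol, the entry step of steroid hormone synthesis. Each of the 4 arrays carried 1 KO extract labelled red with Alexa 647 and 1 WT extract labelled green with Alexa 555, so there were 4 KO and 4 WT extracts, entered as biological replicates. Both genotypes were on the C57BL/6JNarl strain, and 20 µg of total RNA was copied from an oligo-dT primer, which starts at the poly(A) tail of mRNA. The dyes were never swapped, so genotype and dye cannot be told apart in any value below. The sources used here do not give the Cyp11a1 allele or whether an extract came from 1 embryo or from several.

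Most ribosomal proteins are needed in equal numbers of copies, and most of their mRNAs are abundant. Their mRNAs start with a cytosine followed by a run of pyrimidines, the 5′ terminal oligopyrimidine or TOP motif, through which mTOR signalling sets how much they are translated. The exocrine pancreas is among the tissues that make the most protein, and its acinar cells hold dense rough endoplasmic reticulum covered with ribosomes.

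The ribosomal protein mRNAs were higher in the KO pancreas almost throughout. Of the 76 tested genes, 73 (96.1%) rose, 0 fell and 3 did not pass the threshold, an adjusted p under 0.05 from limma fitted across all genes. Of all 15524 genes tested, 9.45% were called higher and 5.11% lower. At an unadjusted p under 0.05 the members counted 74 higher and 0 lower. The median log2 ratio of KO over WT was 0.56 over the members, against 0.013 over all genes tested. A total of 74 of the 76 lay above 0 on every array that measured them, as did 24.1% of all genes. The increases were small but alike, with a middle range over the members of 0.47 to 0.67 on the log2 scale. Only 32 members had a ratio of 1.5 or more, out of 69 genes of the whole array that were called higher with such a ratio, and Rplp1 alone passed 2, one of 6 genes that did. Treating the channels of an array as separate samples left 31 members higher. With median centring in place of loess the median of all genes was 0.26 and that of the members 1.12, and Rpl21 and Rpl39l were then called lower. In whole-tissue extracts more cells of a type and more RNA per cell, or fewer and less, cannot be told apart.

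The subunits had almost the same median. In the large subunit 43 of 46 tested genes rose, with a median log2 ratio of 0.56, and in the small subunit 30 of 30 rose, with a median of 0.54. The large minus the small median was 0.013, and on the 4 arrays it was 0.012, -0.015, 0.067 and 0.0029. With a wider loess window (span 0.7) the difference was -0.00438 and so changed sign. The highest members of the subunits were Rplp1 (large) at 1.09 and Rps24 (small) at 0.93. The middle ranges were alike, at 0.45 to 0.67 (large) and 0.48 to 0.66 (small). The full range was wider in the large subunit. Its lowest member, Rpl39l, stood at -0.024, while the lowest of the small subunit, Rps27l, stood at 0.36. Rpl39l was read by a dim probe, with a mean log2 signal over both channels of 6.96, against 14.34 for Rps27l. The part of brightness in the wider range was not tested.

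**Figure D1:**
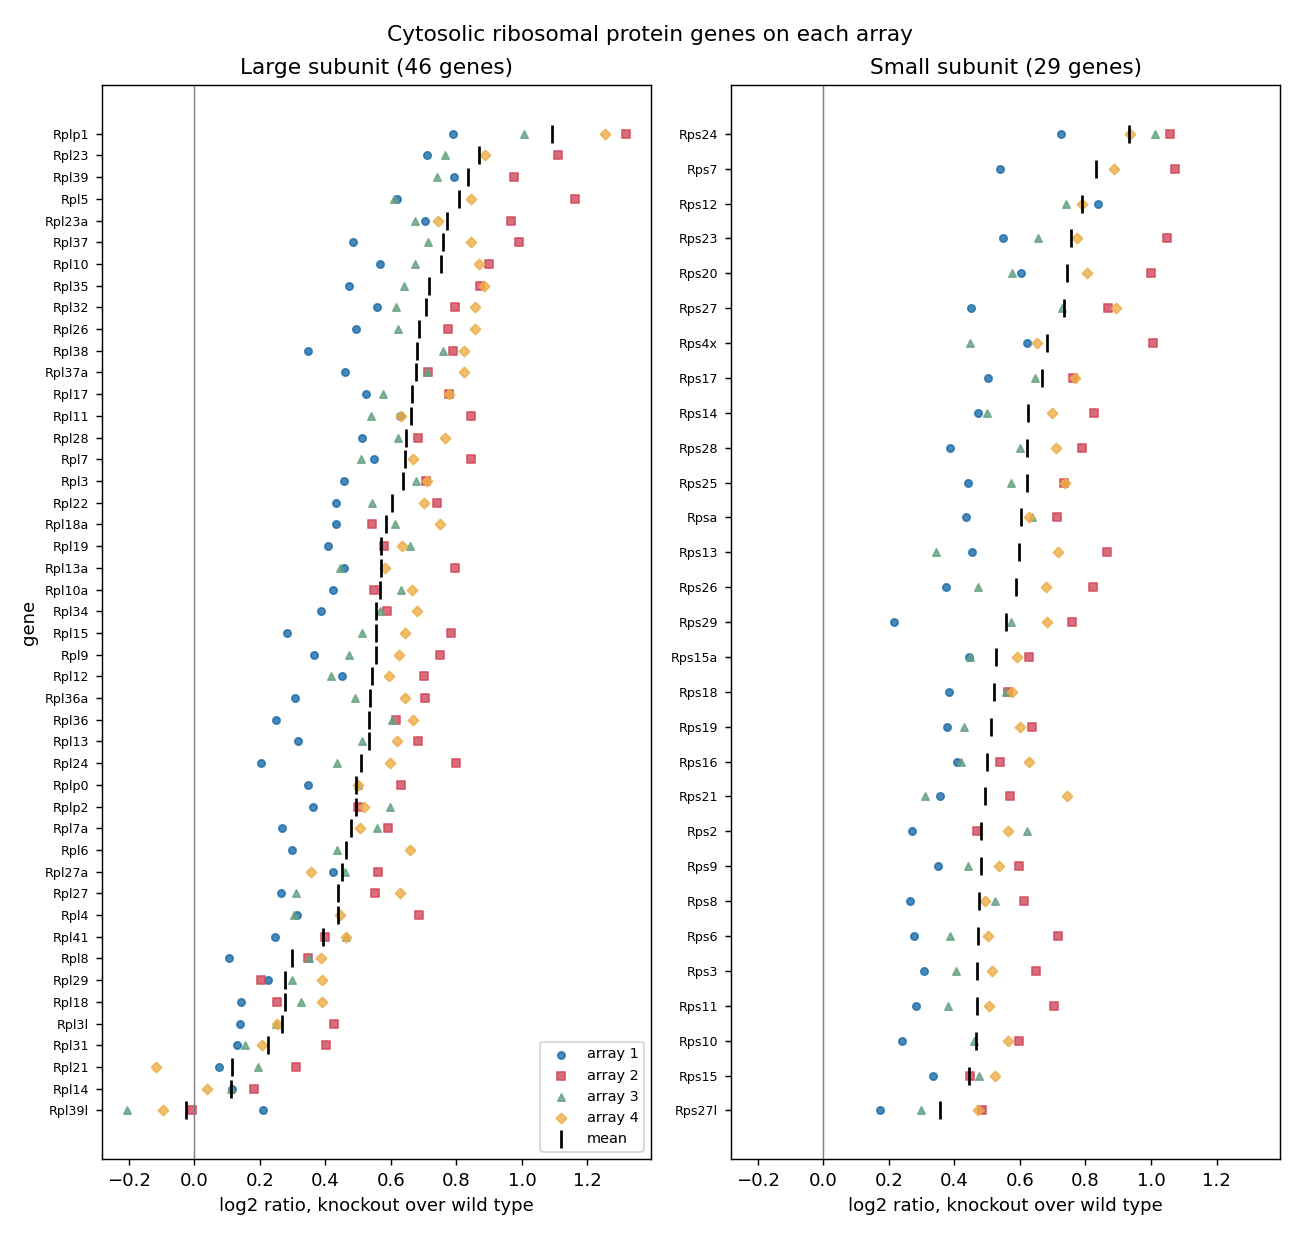
Log2 ratio of KO over WT (horizontal axis) of the 46 large subunit genes (left) and of small subunit genes (right), 1 row a gene. Coloured points are the 4 arrays, 3 for a gene with a missing spot, and the black tick is their mean. All small subunit genes shown and 44 of the 46 large subunit genes lie right of 0 on every measured array, and array 1 gives most of the lowest points.

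The arrays differed in how large the shift was. The member median was 0.39 on array 1, 0.70 on array 2, 0.51 on array 3 and 0.64 on array 4. The median of all genes on the same arrays lay between 0.017 and 0.022. Among the 72 members measured on all arrays, 43 were highest on array 2 and 24 on array 4, while 56 were lowest on array 1 and 12 on array 3. The members thus moved up and down together from array to array. Their order was also kept in part: the Spearman correlation of the members' log2 ratios between pairs of arrays ran from 0.58 to 0.80 over 72 members. The points share probes and labelling chemistry, so the correlation is a description only.

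The stalk, an arm of the large subunit that recruits and activates elongation factors, is built of Rplp0 and the acidic proteins Rplp1 and Rplp2. Rplp1 had normalised signals of 77630, 68410, 96090 and 74880 in KO pancreas, against 44870, 27420, 47800 and 31410 in WT pancreas on the same arrays. No KO value overlapped a WT value. Its log2 ratio was 1.09 ± 0.087 (SE, n = 4 arrays), which is 2.13-fold, with an adjusted p of 0.0019. Its partners moved less: Rplp2 was at 0.36, 0.50, 0.60 and 0.52 on the 4 arrays (mean 0.49 ± 0.05), and Rplp0, the anchor of the stalk, at 0.35, 0.63, 0.50 and 0.50 (mean 0.49 ± 0.06). On each array the ratio of Rplp1 was above those of both partners.

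Rps24, a small subunit protein needed to process the precursor of the 18S RNA and mutated in some human Diamond-Blackfan anaemia, was the highest of its subunit. It had 65610, 73460, 66340 and 80120 in KO pancreas, against 39650, 35250, 32930 and 41850 in WT pancreas. The groups did not overlap, and the log2 ratio was 0.93 ± 0.06 (adjusted p = 0.0013). Rpl23, which sits at the face where the subunits meet, had 63500, 82730, 71860 and 69930 in KO pancreas, against 38800, 38350, 42270 and 37800 in WT pancreas. Its log2 ratio was 0.87 ± 0.07 (adjusted p = 0.0019), and again the groups stood apart.

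**Figure D2:**
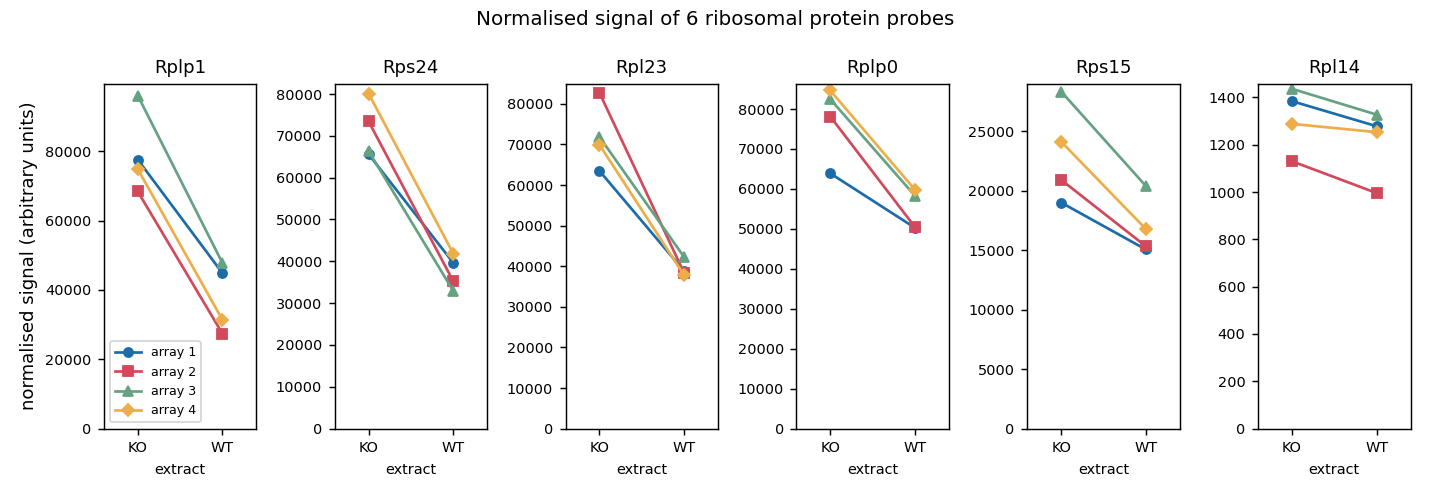
Normalised signal (vertical axis, arbitrary units, from 0, with a scale of its own in each panel) of 6 ribosomal protein probes in KO and WT extracts, with lines joining the extracts of 1 array. Every line is higher at KO than at WT. The ratio is largest for Rplp1 (2.13-fold) and smallest for Rpl14 (1.08-fold), the one of the 6 that did not pass the threshold.

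The exit tunnel, through which the growing chain leaves the large subunit, is lined in part by Rpl39 and ringed by Rpl23a and Rpl31. Rpl39 was measured on 3 arrays, with 36920, 51350 and 64310 in KO pancreas, against 21310, 26110 and 38500 in WT pancreas. The ranges of the groups overlapped, although KO was above WT within each array. Its log2 ratio was 0.84 ± 0.06, with an adjusted p of 0.0021. Rpl23a stood at 0.70, 0.97, 0.67 and 0.74 on the 4 arrays (mean 0.77 ± 0.06, adjusted p = 0.0018). Rpl31 stood lower, at 0.13, 0.40, 0.16 and 0.21 (mean 0.22 ± 0.06, adjusted p = 0.039). It was read by a dimmer probe, with a mean log2 signal of 10.66, against 15.18 for Rpl39 and 15.14 for Rpl23a. The part of brightness in its lower value was not tested. The call of Rpl31 was lost whichever array was left out: its log2 ratio was then 0.26, 0.16, 0.25 and 0.23 without arrays 1 to 4 in turn, with adjusted p of 0.070, 0.081, 0.080 and 0.11. It was also lost with the scanner's processed signals (0.26) and its log ratio column (0.27).

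Rpl5 and Rpl11 carry the 5S RNA into the large subunit and, when ribosome assembly is disturbed, bind the p53 inhibitor Mdm2. Rpl5 had 43610, 56080, 60340 and 53710 in KO pancreas, against 28430, 25050, 39520 and 29890 in WT pancreas. Its log2 ratio was 0.81 ± 0.09 (adjusted p = 0.0028) and the groups did not overlap. Rpl11 was at 0.63, 0.84, 0.54 and 0.63 on the 4 arrays, with a mean of 0.66 ± 0.06 (adjusted p = 0.0020). The large subunit proteins kept in all domains of life numbered 18, of which 18 rose (median 0.64). Leaving aside the acidic stalk proteins and the copies Rpl3l and Rpl39l, 24 tested ones are not found in bacteria, and of these 22 rose (median 0.54), Rpl21 and Rpl14 being the other two.

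In the small subunit, Rps7 and Rps12 were each measured on 3 arrays. Rps7 stood at 0.54, 1.07 and 0.89 on arrays 1, 2 and 4 (mean 0.83 ± 0.10, adjusted p = 0.0047). Rps12 stood at 0.84, 0.74 and 0.79 on arrays 1, 3 and 4 (mean 0.79 ± 0.05, adjusted p = 0.0019). Its values were close together, but it was not measured on array 2, where most members were highest. Rps23, which reaches into the decoding centre, was at 0.55, 1.05, 0.66 and 0.77 (mean 0.76 ± 0.08, adjusted p = 0.0023). Rps20, in the head of the subunit, was at 0.60, 1.00, 0.57 and 0.80 (mean 0.75 ± 0.07, adjusted p = 0.0022).

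The low end of the small subunit still rose. Rps10, near the mRNA entry, was at 0.24, 0.60, 0.46 and 0.56 (mean 0.46 ± 0.07, adjusted p = 0.0056). Rps15, whose tail reaches towards the decoding site, had 19000, 20910, 28330 and 24120 in KO pancreas, against 15060, 15330, 20400 and 16780 in WT pancreas. Within each array KO was above WT, although the ranges of the groups overlapped, and the log2 ratio was 0.44 ± 0.05 (adjusted p = 0.0026). Rpsa, which holds on to the platform side of the subunit and is also known as the laminin receptor, was at 0.44, 0.71, 0.64 and 0.63 (mean 0.60 ± 0.06, adjusted p = 0.0021). The small subunit proteins shared by all domains of life were 15, with a median of 0.52, and the 14 tested that bacteria lack, without the copy Rps27l, had a median of 0.62. All of both kinds rose.

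The 3 members that did not pass the threshold were all of the large subunit and all dim. Rpl14 had 1384, 1130, 1436 and 1288 in KO pancreas, against 1278, 995.7, 1327 and 1253 in WT pancreas, and its log2 ratio was 0.11 ± 0.05 (adjusted p = 0.14). It was above 0 on every array. Rpl21 was at 0.076, 0.31, 0.19 and -0.12 on the 4 arrays (mean 0.12 ± 0.07, adjusted p = 0.31). It stood at -0.23 with median centring, at 0.27 with the scanner's processed signals, at 0.28 with its log ratio column and at 0.051 without array 2. Rpl39l, a copy of Rpl39 used mainly in testis, was at 0.21, -0.0059, -0.21 and -0.095 (mean -0.024 ± 0.069, adjusted p = 0.85), with signals of 104 to 154 in KO pancreas and 101 to 165 in WT pancreas. The sign of Rpl39l changed with the scanner's processed signals (0.024), with its log ratio column (0.032), with the wider loess window (0.020) and without array 3 (0.037), so it has no direction here.

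Other copies with a restricted use behaved in different ways. Rpl3l, the heart and skeletal muscle copy of Rpl3, was dim, with 130, 136, 159 and 203 in KO pancreas, against 118, 101, 134 and 171 in WT pancreas. Its log2 ratio was 0.27 ± 0.06 (adjusted p = 0.021). It stood at -0.021 with median centring, at 0.64 with the scanner's processed signals (adjusted p = 0.051) and at 0.64 with its log ratio column (adjusted p = 0.045). The call was lost too without array 3 (0.27, adjusted p = 0.064) or without array 4 (0.27, adjusted p = 0.069). Rps27l, a copy of Rps27 that p53 can induce, was bright. It stood at 0.17, 0.48, 0.30 and 0.47 (mean 0.36 ± 0.06, adjusted p = 0.012), and without array 4 at 0.32 with an adjusted p of 0.051. Rps27 itself stood at 0.74 and Rpl3 at 0.64.

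Of the copies whose symbols the naming rule leaves out, Rpl36al rose by 0.40 ± 0.06 (adjusted p = 0.0068). Rpl22l1 rose by 0.28 ± 0.07 (adjusted p = 0.042), a call that was lost whichever array was left out, with log2 ratios of 0.33, 0.20, 0.32 and 0.25, and with the scanner's processed signals (0.24) and its log ratio column (0.25). Rpl7l1 stood at 0.043 ± 0.048 (adjusted p = 0.59). Ribosomal protein genes have many processed pseudogenes and close copies elsewhere in the genome, and the part that such copies play in the signal of a probe was not tested.

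The members on the X chromosome were Rpl39, Rpl10, Rps4x and Rpl36a. All 4 rose, with log2 ratios of 0.84, 0.75, 0.68 and 0.54 and a median of 0.72, beside a median of 0.55 over the 72 tested autosomal members. Rpl10, which is added late in the assembly of the large subunit, was at 0.57, 0.90, 0.67 and 0.87 on the 4 arrays. Rps4x was at 0.62, 1.01, 0.45 and 0.65, and Rpl36a at 0.31, 0.71, 0.49 and 0.64. The difference between X-linked and autosomal members was not tested, and the labels say nothing of embryo sex.

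The untested members had the same direction where they could be read. Rpl30 was at 0.38 on array 1, Rps27a at 0.57 on array 1, and Rpl35a at 0.62 and 0.52 on arrays 1 and 3. Rps27a is made as a fusion with ubiquitin.

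Brightness set the members apart from most genes and moved with their ratios. Averaged over both channels, 64 of the 76 tested members (84.2%) reached a mean log2 signal of 14 or more, and all 64 rose, with a median log2 ratio of 0.57. Among the 658 other genes as bright, 51 (7.75%) rose and 59 fell, with a median of -0.00031. The ratio also varied with brightness inside the family: Spearman's rho between the mean log2 signal and the log2 ratio was 0.49 over the 76 members and 0.33 over the 64 bright ones. These genes share arrays and dyes, so both are descriptions.

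**Figure D3:**
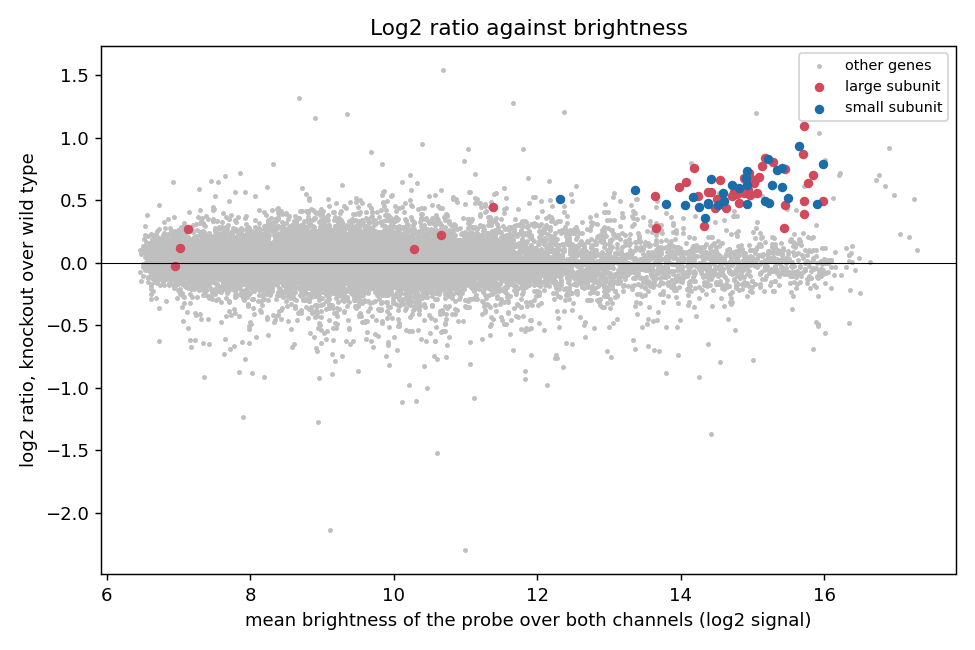
Log2 ratio of KO over WT (vertical axis) against the mean log2 signal over both channels (horizontal axis) of every tested gene, with large subunit genes in red, small subunit genes in blue and the others in grey. At 14 or more the 64 members lie above 0 around a median of 0.57, while the grey genes there centre on 0. The 3 members that did not pass the threshold lie below a mean signal of 12.

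Probes for the same gene showed the same relation to signal. Of 108 tested member probes 101 rose and 0 fell when each was tested on its own, beside 6.63% higher and 4.11% lower over all 32596 tested probes. All 95 probes with a mean log2 signal of 12 or more rose (median 0.56), against 6 of the 13 dimmer ones (median 0.22). For 26 genes several probes were tested, and in 20 the dimmest gave the lower log2 ratio. Where the brightness gap was over 3 on the log2 scale, this held for 6 of 6 genes, with a median difference of -0.49.

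Rpl37, Rps15a and Rpl23 had the widest gaps between probes. For Rpl37 the bright probe gave 0.48, 0.99, 0.71 and 0.84 on the 4 arrays (mean 0.76), while the dim one gave 0.042, 0.047, 0.090 and 0.042 (mean 0.055, adjusted p = 0.46). For Rps15a the bright probe averaged 0.53 and the dim one -0.10 (adjusted p = 0.26), so that the sign differed. For Rpl23 the means were 0.87 and 0.28, and both rose (adjusted p = 0.0012 and 0.0099). In these genes the ratio thus depended on the probe by more than the spread between arrays. The probes of the other genes with several differed less, by 0.39 at most (Rps25). Which probe reads the mRNA more truly was not tested.

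**Figure D4:**
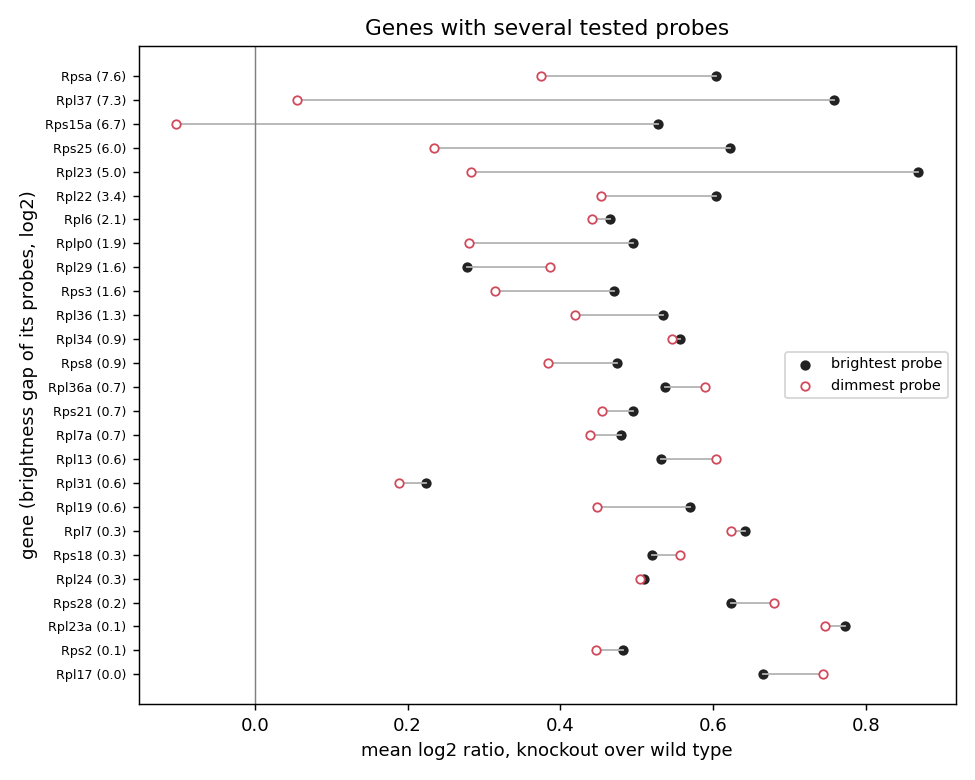
Mean log2 ratio of KO over WT (horizontal axis) of the brightest (black) and the dimmest (open red) tested probe of the 26 ribosomal protein genes with several probes, ordered by the brightness gap given in brackets (log2). In the 6 genes with a gap over 3 the open point lies left of the black one, as far as -0.10 against 0.53 for Rps15a.

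The scanner treated the channels differently for many bright spots, those of the members among them. It read bright spots again at low gain and scaled them up. The files mark this for 90 to 95 of the 112 member spots in the KO channel on each array, against 16 to 35 in the WT channel. Of the other spots that were not non-uniform, 836, 642, 1206 and 503 were marked in the KO channel only on arrays 1 to 4. On the same arrays 333, 471, 433 and 693 were marked in both channels, and 40887 to 41562 in neither. Member spots scaled in the KO channel only had median log2 ratios of 0.42, 0.73, 0.51 and 0.63 on the 4 arrays, while the other spots in that state had 0.012, 0.037, -0.00086 and 0.038. Member spots scaled in neither channel, the dimmest, had lower medians of 0.16, 0.35, 0.19 and 0.27, and those scaled in both 0.39, 0.61, 0.61 and 0.66. The members were above the other spots in each state on each array. The median raw signal was also higher in the KO channel, at 304 to 467, than in the WT channel, at 163 to 224. On the added control RNAs the measured log ratio spanned only 0.67 to 0.73 of the intended one, so a log2 ratio may understate the change in RNA. No spot was saturated.

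Genes that work with the ribosomal proteins were read beside them, by lists chosen with earlier results of these data known. Fau encodes a ribosomal protein fused to a ubiquitin-like protein, and Rack1 a signalling scaffold on the small subunit. Both rose. Fau was at 0.33, 0.56, 0.66 and 0.67 on the 4 arrays (mean 0.56 ± 0.06, adjusted p = 0.0032). Rack1 was at 0.40, 0.73, 0.64 and 0.63 (mean 0.60 ± 0.06, adjusted p = 0.0022). Both were lowest on array 1, as most members were.

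Of 19 tested genes outside the ribosome whose mRNAs are known or thought to carry a TOP motif, 14 (73.7%) rose and 0 fell, also at an unadjusted p under 0.05, with a median of 0.33. Eef1a1, which brings aminoacyl-tRNA to the ribosome, was at 0.63, 1.05, 0.85 and 0.78 (mean 0.83 ± 0.07, adjusted p = 0.0019). Tpt1, the translationally controlled tumour protein, averaged 0.61 ± 0.06 (adjusted p = 0.0021), and Eif3h, an initiation factor subunit, 0.46 ± 0.06 (adjusted p = 0.0041). The list was not uniform: Eef2, which moves the ribosome along the mRNA, stood at -0.0091, and Vim, an intermediate filament gene of mesenchyme, at -0.016. Eif2s3x, an initiation factor gene, spread from -0.26 to 0.39 over the arrays.

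**Figure D5:**
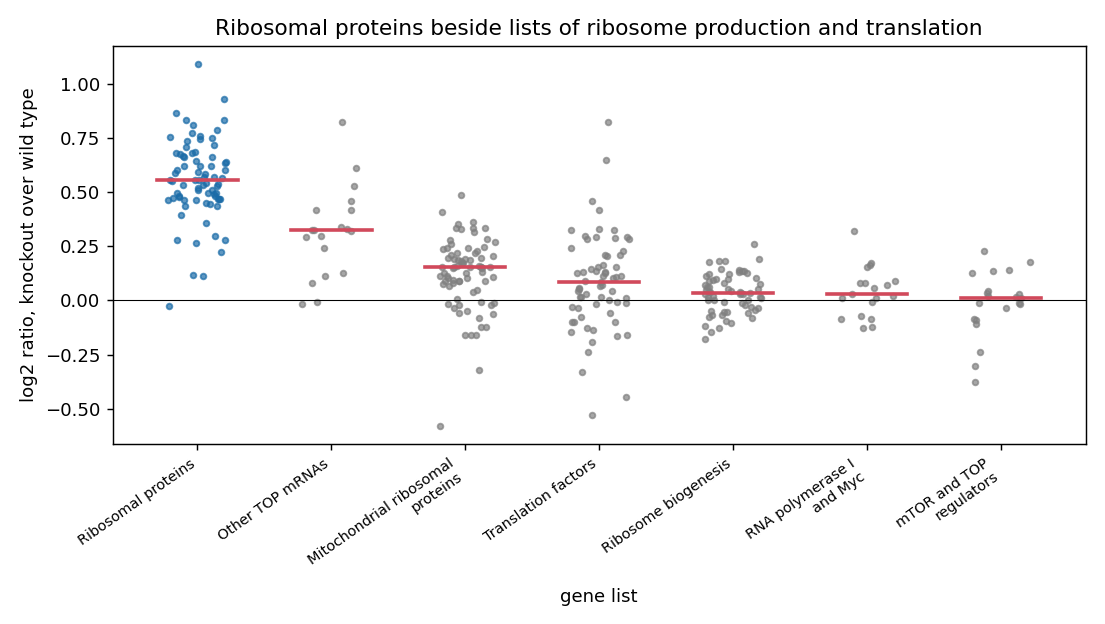
Log2 ratio of KO over WT (vertical axis) of each tested gene in 7 lists (horizontal axis), with the ribosomal proteins in blue, the other lists in grey and the list median as a red bar. The medians step down from 0.56 for the ribosomal proteins, through 0.33 for other TOP mRNAs and 0.15 for mitochondrial ribosomal proteins, to 0.0097 for mTOR and TOP regulators. Some genes stand in several lists. Points are spread sideways for clarity only.

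The mitochondrial ribosomal proteins, which serve translation inside mitochondria, had a lower median in probes that were dimmer. Their median log2 signal was 10.51, against 14.85 for the cytosolic family, and the difference between the families was not tested. Of 77 tested, 26 (33.8%) rose and 2 fell, with a median of 0.15 against 0.56 for the cytosolic family. Mrpl52, Mrps15 and Mrpl48 led with 0.49, 0.41 and 0.36 (adjusted p = 0.0023, 0.0026 and 0.0043), while Mrpl27 and Mrpl12 fell by 0.58 and 0.32. Without arrays 1 to 4 in turn 12, 16, 10 and 15 of the list rose and 1, 3, 2 and 1 fell, and its median stayed between 0.14 and 0.15. The share of all genes called higher was then 4.84%, 6.16%, 4.07% and 4.11%. With median centring 74 rose and 0 fell, with a median of 0.53, beside 61% of all genes higher and their median of 0.26. Translation factors were taken by symbol, as Eif with a number, Eef1 or Eef2. The list includes regulators such as Eif2ak3 and shares genes with the TOP list, among them Eef1a1 and Eif3h. Of the 65 tested 14 (21.5%) rose and 3 fell, with a median of 0.084. Without array 3, 7 rose, beside 4.07% of all genes higher. With median centring 58 rose and 1 fell, beside the same 61% of all genes. Eif2ak3, or PERK, the kinase that slows initiation when unfolded proteins collect in the endoplasmic reticulum, was at -0.44, -0.66, -0.35 and -0.66, and fell by 0.53 ± 0.07 (adjusted p = 0.0038), a call lost with median centring, where it stood at -0.077 (adjusted p = 0.36).

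Genes of the machinery that makes ribosomes gave few calls with loess and many with median centring. Of 63 tested ribosome biogenesis genes 2 (3.17%) rose and 1 fell, with a median of 0.035. With median centring 60 rose and 1 fell, with a median of 0.39, beside 61% of all genes higher. Nop10, of the box H/ACA particles that guide pseudouridylation, rose by 0.26 ± 0.05 (adjusted p = 0.016). Emg1, an 18S RNA methyltransferase, rose by 0.19 ± 0.04 (adjusted p = 0.030), and Nop53 fell by 0.18 ± 0.04 (adjusted p = 0.036), though it stood at 0.41 with median centring and at -0.0050 as the mean of its probes. The calls of Emg1 and Nop53 were lost whichever array was left out, with 0.17 to 0.21 and -0.19 to -0.16, and that of Nop10 was lost without array 3 (0.24) or array 4 (0.26). Of 19 genes of RNA polymerase I and the Myc network 1 rose (5.26%), Polr1c, at 0.32 ± 0.04 (adjusted p = 0.0049), while with median centring 15 rose.

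Among 21 tested genes of mTOR signalling and regulators of TOP mRNAs, 2 rose (9.52%) and 2 fell, with a median of 0.0097. With median centring 17 rose and 0 fell, with a median of 0.31, beside 61% of all genes higher and their median of 0.26. Rptor, the subunit that defines mTOR complex 1, rose by 0.23 ± 0.04 (adjusted p = 0.015), but with median centring it stood at 0.20, which was 0.0525 below the median of all genes. Its call was also lost as the mean of its probes (0.15, adjusted p = 0.051). Sesn1, a sestrin that restrains the complex, fell by 0.30 ± 0.04 (adjusted p = 0.0065), though it stood at 0.11 with median centring. Eif4ebp1, the translation repressor that the complex phosphorylates, fell by 0.24 ± 0.05 (adjusted p = 0.027), though it stood at 0.15 with median centring, below the median of all genes as Sesn1 did. The call of Rptor was lost, too, without array 3 (0.22) or array 4 (0.23), and that of Eif4ebp1 without array 1 (-0.22), array 2 (-0.22) or array 3 (-0.22) and as the mean of its probes (-0.13). Snhg3, a host transcript of small nucleolar RNAs with a TOP start, stood at -0.087 ± 0.061 (adjusted p = 0.37), and at 0.23 with median centring.

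Marker lists of the cell types in the tissue show what moved beside the family. All 8 acinar markers and 7 of 8 endocrine markers were tested and none was at 0. Of the acinar markers 4 rose and 1, Pnlip, fell (median 0.32). The call of Pnlip was lost whichever array was left out. With median centring 7 of the 8 acinar markers rose and 0 fell, beside 61% of all genes higher. Their summed signal was 446100 to 650000 in KO pancreas against 384200 to 400800 in WT pancreas, so the groups did not overlap. Of the proliferation markers 6 of 7 rose (median 0.40), with sums of 11940 to 18010 in KO pancreas and 8639 to 13690 in WT pancreas, which overlapped. Of the endocrine markers 0 rose and 1, Chga, fell, a call lost without array 1 or array 3. With median centring 5 of the 7 rose and 0 fell, again beside 61% of all genes higher. The ribosomal protein sum over 72 genes was 2159000 to 2947000 in KO pancreas and 1564000 to 1993000 in WT pancreas. The groups did not overlap, as with the acinar sum. The part of the acinar and proliferation changes in it was not tested.

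Markers of blood and liver spread widely over the arrays. The 6 erythroid markers had medians of 0.47, 0.23, -0.45 and 0.96 on the 4 arrays, and the 5 hepatocyte markers 1.82, 0.79, -0.48 and 0.61. None of either list passed the threshold, and 1 of each did at an unadjusted p under 0.05. Without array 3, where both medians were below 0, 3 erythroid and 3 hepatocyte markers rose, beside 4.07% of all genes. Summed signals were 120400 to 180700 in KO pancreas and 67380 to 161500 in WT pancreas for the erythroid list, and 1544 to 8466 against 1223 to 4356 for 4 hepatocyte genes. On array 3 the ribosomal protein median was 0.51, and without array 3 it was 0.56 with 69 members higher. With loess, duct (0 of 6), endothelial (0 of 5), leukocyte (0 of 4) and lymph node and spleen markers (0 of 4) gave no calls. At an unadjusted p under 0.05 there were 2 endothelial and 1 leukocyte marker lower. With median centring 6 duct and 4 endothelial markers rose and 0 of either fell. Of the leukocyte markers 1 then rose and 1 fell, and of the lymph node and spleen markers 1 rose and 2 fell. Of the 7 mesenchyme markers 1, Pdgfrb, rose (0.33), a call lost without array 4. Median centring also gave 6 mesenchyme, 5 erythroid and 2 hepatocyte markers higher and 0 lower, beside 61% of all genes higher. Cyp11a1 itself was dim, with log2 ratios of -0.19, -0.40, 0.013 and -0.072 (mean -0.16 ± 0.07, adjusted p = 0.16). The labels do not say which part was deleted, so this probe does not check them.

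The start sites of the genes were read for what the members share in sequence, since the TOP motif sits there. RefSeq windows on GRCm38.p6, from 250 bases before to 50 after the start, were matched for 58 of the 76 tested members. A run of 8 or more bases made only of C and T, touching the 20 bases on either side of the start, was found in 31 of the 58 (53.4%), against 23.7% of 27025 genes with a window. The letters CCGGAAG on either strand, a core that ETS factors such as GABPA bind, were found in 25 (43.1%) against 9.93%. TATAAA was found in 6 (10.3%) against 15.7%. The runs may overlap the other motifs, and a match is a description of letters only. Members with such a run had a median log2 ratio of 0.56 (31 genes) and those without it 0.54 (27 genes), and CCGGAAG gave the same pair of medians (25 and 33 genes). A run near the annotated start is not the TOP motif itself, which begins with a cytosine at the first base of the mRNA. Whether either motif goes with the size of change was not tested.

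The following windows, 30 bases before the annotated start and 25 from it on, show members towards both ends of the range and, with Rplp2 (0.49), between them. Capitals mark a run of 8 or more pyrimidines where there is one. They lie on GRCm38.p6 at chr14:24490648-24490702 (Rps24, plus strand), chr2:39005107-39005161 (Rpl35, minus strand), chr7:141447621-141447675 (Rplp2, plus strand), chr11:97782415-97782469 (Rpl23, minus strand), chr13:90923092-90923146 (Rps23, plus strand), chr9:120571487-120571541 (Rpl14, plus strand) and chr1:39367821-39367875 (Rpl31, plus strand).
Rps24: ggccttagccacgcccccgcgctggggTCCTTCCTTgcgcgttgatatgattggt
Rpl35: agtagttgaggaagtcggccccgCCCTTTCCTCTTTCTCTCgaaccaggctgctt
Rplp2: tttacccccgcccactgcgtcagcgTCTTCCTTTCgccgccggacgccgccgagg
Rpl23: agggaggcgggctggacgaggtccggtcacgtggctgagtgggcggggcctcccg
Rps23: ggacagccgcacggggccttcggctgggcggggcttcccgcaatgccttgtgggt
Rpl14: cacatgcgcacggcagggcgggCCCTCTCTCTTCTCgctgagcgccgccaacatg
Rpl31: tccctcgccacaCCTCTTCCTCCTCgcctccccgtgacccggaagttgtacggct
Rpl14 and Rpl31, at the low end with 0.11 and 0.22, hold runs of 14 and 13 bases. Both were read by dim probes, with mean log2 signals of 10.29 and 10.66, and the run of Rpl31 ends before the annotated start. Rpl23 and Rps23, at 0.87 and 0.76, have no run of 8 near the annotated start. Rps24 and Rpl35, at 0.93 and 0.72, hold runs of 9 and 18. The windows were picked by hand as examples, and a relation between runs and change was not tested.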

How the data were processed

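RNA of 4 KO and 4 WT extracts was hybridised as 4 pairs. The deposited files hold the authors' scanner output, per the file headers: intensity per spot in red and green, and a log10 ratio (the submitters' processing notes name Agilent Feature Extraction, version 10.5.1.1). Median signals were corrected with normexp (offset 50) and loess normalised within each array (span 0.3, control and non-uniform spots at weight 0). They were averaged per probe, and non-uniform spots were left out. The offset was added to both channels, so it is part of the normalised signals and draws the ratios of dim probes towards 0. Its part in the lower ratios of dim probes was not tested. Probes were named through their RefSeq transcript, which covered 61% of 41174 probes. A gene was read by its brightest tested probe. Log2 ratios of KO over WT were tested against 0 with limma 3.58.1 (R 4.3.3), two-sided, with Benjamini-Hochberg adjustment over 15524 genes; SE is from this fit. The fit was tested on simulated data. The KO and WT extracts of an array are paired within its ratio. Well-above-background spots made up 78.2% to 85.1% of each channel, and the 4 arrays limit the precision.

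The members and lists were chosen with earlier results of these data known. Named with values were, in each subunit, the 5 highest and 4 lowest members, the stalk proteins and Rpsa, Fau and Rack1, restricted or duplicated copies, X-linked members, members not called, genes whose probes differ by over 0.5, and up to 3 genes with the smallest p in each companion list. Some genes that this rule names are not reported here. Naca, Rpl11, Rps27, Rpl3, Rpl35, Eef2, Vim, Eif2s3x, Mrpl12, Mrpl27, Btf3, Pdgfrb, Pnlip and Chga, where named, were chosen after their values were seen. Alternatives covered background correction, the authors' processed signals and log ratios, centring, loess, scaling between arrays, filters, probe choice, the fit, and leaving out each array.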

Additional observations from a re-analysis of the deposited data

Results flagged for a closer look

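Among 50 sets of 4 array values checked, 3 held an array whose gap to the others exceeded the 95% limit of Dixon's test, and chance alone gives about 1 in 20. None was a ribosomal protein gene. Eif3h stood at 0.65 on array 2, against 0.38 to 0.42 on the other arrays. Eif4ebp1 stood at -0.080 on array 4, while it was at -0.30, -0.29 and -0.28 on arrays 1 to 3. Polr1a, the catalytic subunit of RNA polymerase I, stood at 0.0066 on array 1, beside 0.22, 0.25 and 0.21 on arrays 2 to 4.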

How the results depend on the processing

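The members called higher numbered 67 to 73 when an array was left out, and their median log2 ratio ran from 0.51 to 0.62 (large 0.51 to 0.62, small 0.50 to 0.60, large minus small 0.0060 to 0.018). Of the members not already named as lost, Rpl8 and Rpl18 lost their call without array 3 (0.28 and 0.26) or array 4 (0.27 and 0.24), and Rpl29 (0.24) and Rpl6 (0.37) without array 4. Over the whole array 637 to 972 genes were then higher. Treating the channels as separate samples, with no replicate block for the shared array, left 31 members higher, and 77 genes higher and 30 lower over the whole array. Median centring in place of loess moved the median of all genes to 0.26, and the whole-array split to 9471 higher and 2451 lower, against 1467 and 793. The members then had medians of 1.12 (all), 1.12 (large) and 1.11 (small), 0.86 above all genes, with 2 called lower: Rpl21 (-0.23) and Rpl39l (-0.39). It also turned the sign of Rpl3l (-0.021), Sesn1 (0.11), Eif4ebp1 (0.15), Nop53 (0.41) and Snhg3 (0.23). Loess with span 0.7 gave a large minus small median of -0.00438. Rpl39l turned positive with processed signals (0.024), the log ratio column (0.032) and span 0.7 (0.020), and without single replicates it ran from -0.10 to 0.037. Of the values of named genes under the alternatives, 811 kept direction and call, 68 lost the call, 11 gained one and 10 changed sign. The cause of these shifts was not tested. Dim probes, near background, bound what can be said of Rpl3l, Rpl21 and Rpl39l.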

Other observations

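A probe for the 28S ribosomal RNA gene Rn28s1, chosen after its values were seen, had normalised signals of 126400, 151200, 132200 and 162300 in KO pancreas, against 89710, 101200, 71430 and 90120 in WT pancreas. The groups did not overlap, and the log2 ratio was 0.70 ± 0.07 (adjusted p = 0.0023). The mature RNA has no poly(A) tail, while the labelling was primed with oligo-dT, and what the value measures was not tested.

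Among other TOP mRNAs, Naca, a chaperone subunit that meets the growing chain at the ribosome, stood at 0.44, 0.79, 0.38 and 0.51 on the 4 arrays (mean 0.53 ± 0.07, adjusted p = 0.0045), and its partner Btf3 at 0.29, 0.45, 0.32 and 0.31 (mean 0.34 ± 0.05, adjusted p = 0.0055).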
